A study of Mus musculus with 4 samples.

Results

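A set of 10 enzymes of branched-chain amino acid breakdown was followed in nuclei of thymic and epigonadal adipocyte preparations. The genes were Bcat2, Bckdha, Bckdhb, Dbt, Mccc1, Mccc2, Pcca, Pccb, Aldh6a1 and Acadsb. They were picked by symbol, and 10 of 10 were present among the 32285 genes of the count matrices. Their RNA was read as UMIs (unique molecular identifiers, 1 per captured RNA molecule) divided by the nuclear-encoded UMIs of the same nuclei and scaled to counts per 1000000 (CPM), and their chromatin as fragments per 1000000 fragments of the label (FPM) over the gene body with 2 kb on either side.

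All mice were wild type, naïve C57/BL6 animals on standard chow. Single-nucleus RNA came from 1 library of 6 pooled thymi and 1 library of epigonadal white fat from 4-month males. How many animals gave the fat is not stated in the labels. Chromatin came from 1 multiome library of 16 pooled thymi from 6-month females, so age and sex differ between the RNA and the chromatin data and cannot be told apart. Nuclei came from the cells that floated after enzymatic digestion, so what does not float was not sampled. Nuclei carry the authors' 5 labels, which are Ad Ia and Ad Ib (together called Ad I here) and an Ad II series of IIa, IIb and IIc. With 1 library per group there is no replicate check and no test, and every interval covers counting error only, at 95%.

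Leucine, isoleucine and valine are broken down in mitochondria. A transaminase (Bcat2 in most tissues) turns each into its keto acid, and the branched-chain keto acid dehydrogenase complex, built from E1 alpha (Bckdha), E1 beta (Bckdhb), E2 (Dbt) and a shared E3, then commits the carbon to oxidation. Methylcrotonyl-CoA carboxylase (Mccc1 and Mccc2) serves leucine, Acadsb acts in the isoleucine branch, Aldh6a1 acts in the valine branch, and propionyl-CoA carboxylase (Pcca and Pccb) takes up the propionyl-CoA that isoleucine and valine yield. White fat is a known site of this pathway, and its carbon can feed fat synthesis.

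Promoters are shown first for 3 of the genes. Pcca has 2 annotated starts, and 1 of them held no chromatin fragment in labelled nuclei. Aldh6a1 had the start with the most fragments of the 9 genes with a promoter window, and Bckdhb is the one of the 10 whose RNA differed most between Ad I and Ad IIa in both libraries. Each line gives the 250 bases before the start, 5′ to 3′ on the gene's strand, from RefSeq on GRCm38.p6. Capitals mark matches on either strand to AGGTCA (the core of nuclear receptor sites), CCAAT or GGGCGG.
Pcca, upstream start, chr14:122484115-122484364, plus strand: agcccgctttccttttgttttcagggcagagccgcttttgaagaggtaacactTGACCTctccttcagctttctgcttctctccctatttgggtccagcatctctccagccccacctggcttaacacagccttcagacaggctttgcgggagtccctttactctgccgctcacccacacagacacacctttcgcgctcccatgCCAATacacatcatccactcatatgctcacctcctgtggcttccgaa
Pcca, downstream start, chr14:122534078-122534327, plus strand: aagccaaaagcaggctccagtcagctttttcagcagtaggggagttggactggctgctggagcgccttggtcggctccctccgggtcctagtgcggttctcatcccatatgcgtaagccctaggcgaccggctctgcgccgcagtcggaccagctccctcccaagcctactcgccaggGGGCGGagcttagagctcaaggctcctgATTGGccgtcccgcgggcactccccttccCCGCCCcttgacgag
Aldh6a1, start with most fragments, chr12:84451025-84451274, minus strand: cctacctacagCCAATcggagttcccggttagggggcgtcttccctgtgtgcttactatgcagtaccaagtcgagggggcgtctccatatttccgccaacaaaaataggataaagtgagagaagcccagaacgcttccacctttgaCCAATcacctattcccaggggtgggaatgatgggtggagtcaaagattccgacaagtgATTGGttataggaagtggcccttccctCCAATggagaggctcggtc
Bckdhb, start with most fragments, chr9:83924887-83925136, plus strand: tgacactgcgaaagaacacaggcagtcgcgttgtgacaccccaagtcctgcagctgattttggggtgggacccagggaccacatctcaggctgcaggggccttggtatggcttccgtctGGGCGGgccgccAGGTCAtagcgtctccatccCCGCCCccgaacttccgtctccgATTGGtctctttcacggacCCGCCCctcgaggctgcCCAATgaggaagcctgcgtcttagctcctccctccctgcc

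The Aldh6a1 promoter printed here held 4 CCAAT matches and the Bckdhb promoter 3 GGGCGG, 2 CCAAT and 1 AGGTCA matches. Over the whole windows of 300 bases (250 before to 50 after the start), 13 windows of 9 of the genes were in the RefSeq table, and none was there for Dbt. CCAAT was in 8 of the 13 windows and in 37.4% of all 32851 promoter windows. AGGTCA was in 4 of 13 (16.3% of all), GGGCGG in 4 of 13 (35.7%), CACGTG in 1 of 13, that of Mccc2 (7.15%), and GCATGCG in 1 of 13, that of Pccb, where 2 matches overlapped on opposite strands (3.58%). AAGGTCA, which contains AGGTCA, was in 0 of 13 (4.72%).

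Labels covered 365 thymic nuclei (1.62% of that library's barcodes) and 1564 epigonadal nuclei (31.0%). The sums held 52241 nuclear-encoded UMIs for thymic Ad I (84 nuclei), 401448 for thymic Ad IIa (231), 263848 for epigonadal Ad I (258), 1237126 for epigonadal Ad IIa (590) and 516172 for epigonadal Ad IIc (658), so thymic Ad I was the shallowest of these. Thymic Ad IIb held 27020. The unlabelled barcodes held 4603069 thymic and 3777938 epigonadal UMIs. What they hold (free RNA or unlabelled cells) was not tested. Thymocyte markers summed to 4819 CPM in the thymic ones, against 154 in thymic Ad IIa. A level at or below that of the unlabelled barcodes does not by itself show RNA of the labelled nuclei. The part of free RNA in such a level was not tested. Of all barcode sequences, 147 occurred in both libraries, and 0 of them were labelled in both. Across the labels, 12 adipocyte markers summed to between 8031 CPM (thymic Ad IIb) and 70139 CPM (epigonadal Ad IIc), and 10 endothelial markers to between 72.3 CPM (thymic Ad Ia, 8 of 10 at 0) and 12768 CPM (thymic Ad IIb). Adipoq, the adipocyte hormone adiponectin, was lowest in thymic Ad IIa, at 9.96 CPM, with the endothelial gene Pecam1 at 986 CPM there, against 449 and 890 CPM in epigonadal Ad IIa. Thymic epithelial markers were at 0 UMIs in every thymic label.

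In the thymus the enzyme RNA was concentrated in Ad I. The 10 genes together reached 1512 CPM in thymic Ad I (1197 to 1885), against 269 (221 to 325) in Ad IIa, 333 (152 to 632) in Ad IIb and 313 (183 to 502) in Ad IIc. The unlabelled thymic barcodes stood at 483 (463 to 504), above thymic Ad IIa. Against those barcodes 8 of 10 enzymes were at least 2-fold higher in thymic Ad I, where 37.9% of genes were. With a count of 0 held at its limit of 3 UMIs, 24.9% of genes were. The median log2 ratio was 1.55 beside 0.58 over all genes, and 5 of 10 intervals lay above 0 (1047 of 13161 genes). Relative to genes near them in length, 4 of 10 were at least 2-fold higher, and the share of all genes was not counted on that measure. In thymic Ad IIa 4 of 10 were at least 2-fold lower than the unlabelled barcodes (28.8% of genes, or 15.8% so held). For single enzymes this order was not always resolved. Pcca stood at 259 CPM in thymic Ad IIb (104 to 534, 7 UMIs) against 345 in Ad I (204.2 to 544.5). Acadsb stood at 55.3 CPM in thymic Ad IIc (11.4 to 162, 3 UMIs) against 38.3 in Ad I (4.64 to 138). In epigonadal fat the order was different. Epigonadal Ad IIc was highest at 2238 CPM (2110 to 2370), followed by Ad I at 1569 (1422 to 1728), Ad IIa at 640 (596 to 686) and Ad IIb at 398 (301 to 517), with 982 (950 to 1014) in the unlabelled barcodes. No neighbours in this epigonadal order, with Ad Ia and Ad Ib pooled as Ad I, had overlapping intervals. Taken alone, epigonadal Ad Ia (1663 to 2118) overlapped epigonadal Ad IIc. The 3 thymic Ad II labels overlapped each other. Within Ad I, the sum was higher in Ad Ia than in Ad Ib, at 1916 against 1058 CPM in the thymus and 1880 against 1197 in epigonadal fat. The Ad IIc labels of the libraries were not alike in markers. Thymic Ad IIc (34 nuclei) had erythroid markers at 25948 CPM and endothelial markers at 10836 CPM. In epigonadal Ad IIc these were at 393 and 506 CPM. The part of this in the different orders was not tested.

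**Figure D1:**
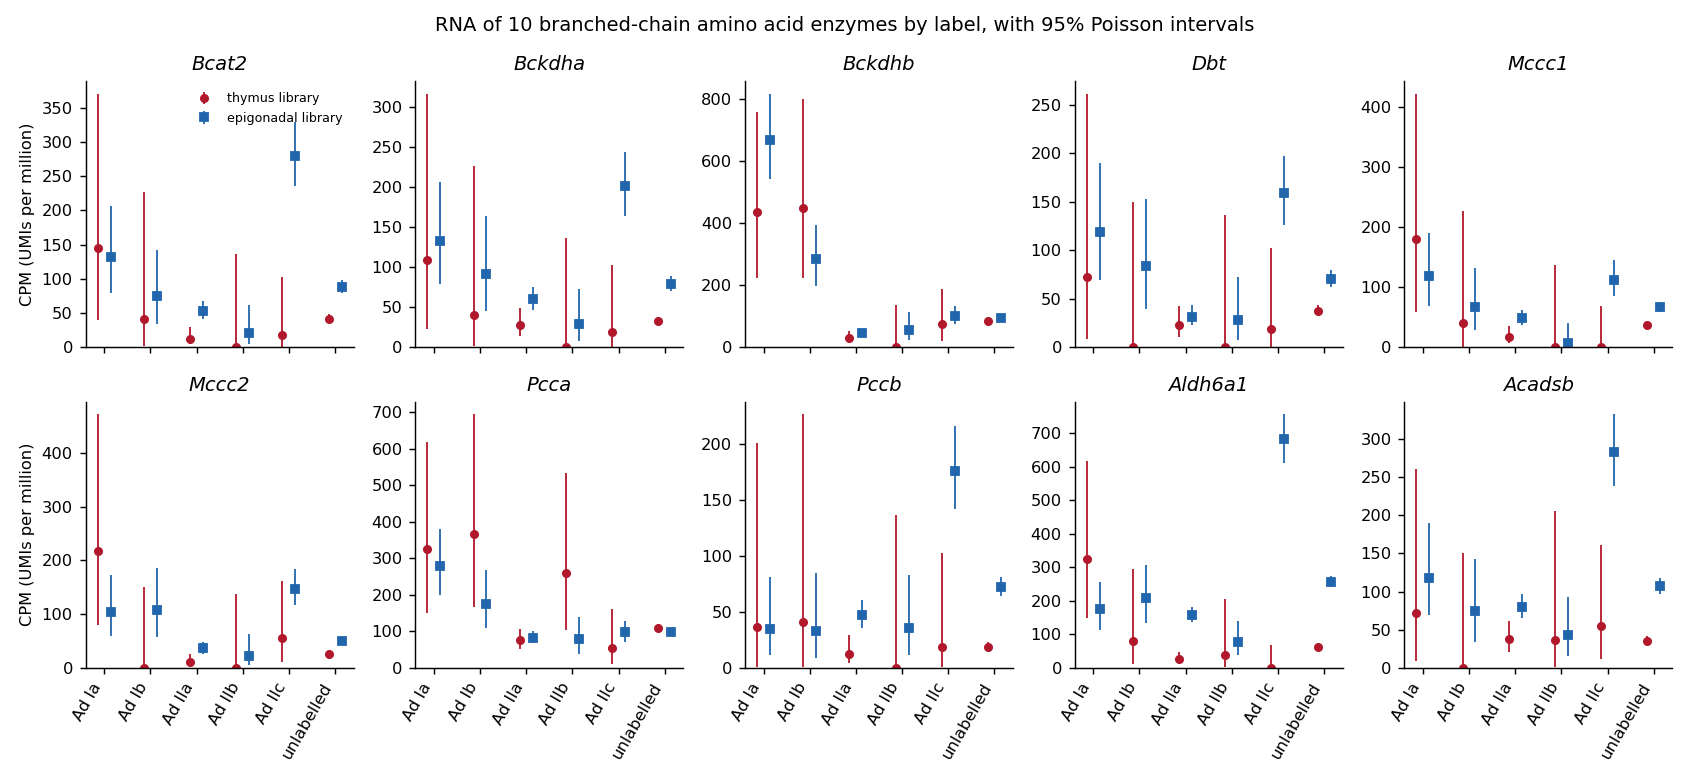
Level of each enzyme (CPM, linear axis from 0) in each label and in the unlabelled barcodes, for the thymus (circles) and epigonadal (squares) libraries, with 95% Poisson intervals. Of the 10, 6 are highest in epigonadal Ad IIc, such as Aldh6a1 at 682 CPM, while Bckdhb, Pcca, Mccc1 and Mccc2 are highest in an Ad Ia or Ad Ib label. For Pcca, Mccc1 and Mccc2 that label is thymic and rests on 9, 5 and 6 UMIs, with intervals that overlap those of other labels.

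Bcat2, the mitochondrial transaminase, stood at 95.7 CPM in thymic Ad I (5 UMIs), 12.5 in thymic Ad IIa (5 UMIs) and 41.9 in the unlabelled thymic barcodes. In the epigonadal library it stood at 106 in Ad I, 53.4 in Ad IIa, 279 in Ad IIc and 87.9 in the unlabelled barcodes. Thymic and epigonadal Ad I were not resolved from each other, and thymic Ad IIa was below both the unlabelled thymic barcodes and epigonadal Ad IIa. The log2 ratio of thymus to epigonadal fat was −0.04 in Ad I (−1.88 to 1.24) and −1.97 in Ad IIa (−3.77 to −0.80). Within epigonadal fat, Ad IIc exceeded Ad I by 1.37 (0.80 to 2.03). The first part of Bcat2 overlaps the non-coding gene 0610005C13Rik, and no source names the strand used in counting, so UMIs of the pair may be mixed.

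Of the keto acid dehydrogenase subunits, Bckdhb differed most between Ad I and Ad IIa. Bckdhb, the E1 beta subunit, stood at 440 CPM in thymic Ad I (23 UMIs in 18 of 84 nuclei) and at 29.9 in thymic Ad IIa, with 84.7 in the unlabelled thymic barcodes. In epigonadal fat it stood at 493 in Ad I, 44.5 in Ad IIa, 101 in Ad IIc and 92.9 in the unlabelled barcodes. Ad I was thus the high sum in both libraries. At least 1 Bckdhb UMI was found in 21.4% of thymic Ad I nuclei (median 500.5 UMIs a nucleus, 14.7% mitochondrial) and in 1.59% of the unlabelled thymic barcodes (median 308, 51.2% mitochondrial), so their nuclear-encoded depths differ by more than the medians do. The log2 ratio of Ad IIa to Ad I was −3.85 in the thymus (−5.02 to −2.81) and −3.46 in epigonadal fat (−3.95 to −3.01). Between the libraries Bckdhb did not separate, with −0.14 in Ad I (−0.87 to 0.48) and −0.53 in Ad IIa (−1.61 to 0.35). The non-coding genes Gm46124 and Gm29163 lie inside Bckdhb, which limits its UMIs as for Bcat2.

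Bckdha, the E1 alpha subunit, took another course. It stood at 76.6 CPM in thymic Ad I (4 UMIs), 27.4 in thymic Ad IIa and 32.6 in the unlabelled thymic barcodes. In epigonadal fat it stood at 114 in Ad I, 59.8 in Ad IIa, 202 in Ad IIc and 79.4 in the unlabelled barcodes, so that Ad IIc was the high sum. Dbt, the E2 core that carries the lipoyl arm, followed the same order at 38.3 CPM in thymic Ad I (2 UMIs) and 22.4 in thymic Ad IIa. Its epigonadal levels were 102 in Ad I, 31.5 in Ad IIa and 159 in Ad IIc. In epigonadal Ad IIc against Ad I, Bckdha was higher by 0.81 on the log2 scale (0.23 to 1.46) and Dbt by 0.62 with an interval that just reached 0 (−0.01 to 1.32). Bckdhb was lower there, at −2.28 (−2.78 to −1.82). The pseudogene Gm4596 lies inside Dbt.

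The balance of subunits therefore shifted between labels. Ratios of 2 genes depend on how well each is captured and are compared here only across labels. The log2 ratio of Bckdha to Bckdhb UMIs was −2.10 in epigonadal Ad I (−2.74 to −1.53), 0.42 in Ad IIa (−0.09 to 0.96) and 0.99 in Ad IIc (0.51 to 1.51). Thymic Ad I, at −2.39 (−4.52 to −0.97), lay with epigonadal Ad I, and thymic Ad IIa was at −0.12 (−1.45 to 1.18). Dbt against Bckdhb moved from −2.25 in epigonadal Ad I (−2.92 to −1.66) to 0.65 in Ad IIc (0.14 to 1.19). Gene length runs with the Ad IIc part of this: over Ad I, genes near Bckdhb in length had a median of −2.32. Genes near Bckdha in length had −0.18 and those near Dbt −0.48. The RNA ratios of the subunits thus differed across labels, and the part of gene length in this was not tested.

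For leucine, the ratios of the 2 subunits of methylcrotonyl-CoA carboxylase had intervals that overlapped between the labels given here. Mccc1, the biotin-bearing subunit, stood at 115 CPM in thymic Ad I (6 UMIs) and 17.4 in thymic Ad IIa. Its epigonadal levels were 94.8 in Ad I, 48.5 in Ad IIa and 112 in Ad IIc. Mccc2, the partner subunit, stood at 115 in thymic Ad I (6 UMIs), 9.96 in thymic Ad IIa and 106, 36.4 and 147 CPM in epigonadal Ad I, Ad IIa and Ad IIc. Both were low in Ad IIa of both libraries. Their log2 ratio was 0 in thymic Ad I (−1.90 to 1.90), −0.16 in epigonadal Ad I, 0.41 in Ad IIa (−0.17 to 1.01) and −0.39 in Ad IIc (−0.91 to 0.12), all with intervals that overlap, the thymic one being wide. In the unlabelled barcodes it was 0.55 in the thymus (0.20 to 0.90) and 0.44 in epigonadal fat (0.16 to 0.72). The epigonadal Ad IIc interval lay below both of these. Overlap does not show equal ratios, and differences between labels were not tested. Thymus against epigonadal fat in Ad IIa was −1.39 for Mccc1 (−2.85 to −0.35) and −1.71 for Mccc2 (−3.81 to −0.41). Mccc1 overlaps the non-coding gene Mccc1os, which limits its UMIs as for Bcat2.

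For propionyl-CoA carboxylase, the subunit ratio differed across epigonadal Ad I, Ad IIa and Ad IIc. Pcca, the biotin-bearing subunit, stood at 345 CPM in thymic Ad I (18 UMIs, each in a different nucleus of 84), 74.7 in thymic Ad IIa and 109 in the unlabelled thymic barcodes. Its epigonadal levels were 231 in Ad I, 82.5 in Ad IIa, 96.9 in Ad IIc and 97.9 in the unlabelled barcodes. Pccb, the partner subunit, stood at 38.3 in thymic Ad I (2 UMIs), 12.5 in thymic Ad IIa, and 34.1, 46.9 and 176 CPM in epigonadal Ad I, Ad IIa and Ad IIc. Pcca was thus highest in Ad I, and Pccb was highest in epigonadal Ad IIc. The log2 ratio of Pcca to Pccb ran from 2.70 in epigonadal Ad I (1.74 to 3.96) over 0.81 in Ad IIa (0.34 to 1.31) to −0.86 in Ad IIc (−1.39 to −0.35), 3 intervals without overlap. Gene length runs with the Ad IIc part of this: over Ad I, genes near Pcca in length had a median of −2.96 and those near Pccb −0.97, and both subunits lay above those medians. In the thymus it was 2.89 in Ad I (1.11 to 6.32), 2.47 in Ad IIa (1.21 to 4.31) and 2.52 in the unlabelled barcodes (2.19 to 2.87), with no shift between these thymic sums resolved, against 0.44 in the unlabelled epigonadal barcodes (0.21 to 0.67). The pseudogenes Gm9399 and Gm18143 and a predicted coding gene, Gm46487, lie inside Pcca.

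In the valine branch, Aldh6a1, methylmalonate semialdehyde dehydrogenase, had the largest ratio between the libraries in Ad IIa. It stood at 211 CPM in thymic Ad I (11 UMIs in 10 nuclei), 24.9 in thymic Ad IIa and 61.5 in the unlabelled thymic barcodes, and had 0 UMIs in thymic Ad IIc. In epigonadal fat it stood at 190 in Ad I, 157 in Ad IIa, 682 in Ad IIc and 257 in the unlabelled barcodes. In Ad I the libraries were not resolved from each other, while thymic Ad IIa was far under epigonadal Ad IIa. The log2 ratios were 0.20 in Ad I (−0.94 to 1.11; −0.14 with TMM scaling, which rescales libraries on the bulk of genes) and −2.59 in Ad IIa (−3.74 to −1.74), which is 6.01-fold lower in the thymus. In epigonadal Ad IIc, 263 of 658 nuclei (40.0%, 36.2 to 43.8) held at least 1 Aldh6a1 UMI, against 21.1% of the unlabelled epigonadal barcodes, at median depths of 714 and 794 UMIs. The gene Bbof1 overlaps Aldh6a1.

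Acadsb, the short branched-chain acyl-CoA dehydrogenase of the isoleucine branch, stood at 38.3 CPM in thymic Ad I (2 UMIs), 37.4 in thymic Ad IIa and 35.4 in the unlabelled thymic barcodes, 3 nearly equal levels. In epigonadal fat it stood at 98.5 in Ad I, 80.0 in Ad IIa, 283 in Ad IIc and 108 in the unlabelled barcodes. Of these, Ad IIc alone stood above the unlabelled barcodes. The thymus to epigonadal ratio was −1.07 in Ad I (−4.48 to 0.63) and −1.06 in Ad IIa (−1.99 to −0.31).

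Set side by side, the summed enzymes were close between the libraries in Ad I and apart in Ad IIa. In Ad I, 0 of the 10 enzymes were at least 2-fold higher in the thymus (15.2% of 5346 genes with at least 10 UMIs were) and 2 were at least 2-fold lower (17.0% of genes, or 9.26% with 0 held at its limit), namely Dbt at −1.12 (−4.54 to 0.57) and Acadsb, each with 2 thymic UMIs. All 10 intervals included 0, where 7.48% of genes had an interval above and 4.26% below it. The median was 0.08 beside 0.08 over all genes, and the summed ratio was −0.05 (−0.42 to 0.30). Brown adipocyte markers stood at 2756 CPM in thymic and 406 in epigonadal Ad I, and their part was not tested. With library totals as the scale, the interval of the sum lies within 2-fold in either direction, and among single genes so did that of Bckdhb alone. TMM scaling shifted all Ad I ratios by −0.34, which put the sum at −0.38 (−0.76 to −0.04), an interval that no longer includes 0. It took the higher genes among all 2-fold calls from 47.1% to 23.3%.

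In Ad IIa, 7 of the 10 enzymes were at least 2-fold lower in the thymus, where 16.2% of 9775 genes were, and 0 were at least 2-fold higher (5.44%). The same 7 had intervals below 0, against 12.2% of genes. With a pseudocount of 5 UMIs 3 were at least 2-fold lower, and the share of all genes was not counted under that setting. Besides Aldh6a1, Bcat2, Mccc2, Mccc1 and Acadsb, the 7 of the main count were Pccb at −1.79 (−3.59 to −0.61) and Bckdha at −1.07 (−2.19 to −0.20). Pcca at −0.12 (−0.78 to 0.46), Dbt at −0.43 (−1.72 to 0.58) and Bckdhb were not resolved from 0. The median was −1.23 beside −0.02 over all genes, and the summed ratio was −1.25 (−1.55 to −0.96), or 2.37-fold lower. With marker levels as given above, thymic Ad IIa also had lower adipocyte markers (12574 against 24411 CPM) and higher endothelial markers (12022 against 8826 CPM) than epigonadal Ad IIa. Its mitochondrial share of UMIs was 12.8% against 4.91%, and its ribosomal protein genes summed to 23296 against 38364 CPM. Its fibroblast markers were at 4.98 against 221 CPM and its thymocyte markers at 154 against 4.04 CPM. Malat1, Neat1 and Meg3 together were at 17823 against 10402 CPM. The part of these in the result was not tested. The unlabelled barcodes moved in the same direction, at a summed ratio of −1.02 (−1.10 to −0.95), and 5 of 10 enzymes were at least 2-fold lower there, where 22.4% of genes were. Both Ad IIa sums lay below the unlabelled barcodes of their own library. The summed log2 ratio of Ad IIa to those barcodes was −0.84 (−1.14 to −0.57) in the thymus and −0.62 (−0.73 to −0.51) in epigonadal fat. Matched on thymocyte markers, the unlabelled profile came to 3.2% of the thymic and 1.34% of the epigonadal Ad IIa sum. The part of free RNA in either sum was not tested.

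Over all labelled nuclei the sum was 398 CPM in the thymus and 1120 CPM in epigonadal fat, a log2 ratio of −1.49 (−1.70 to −1.29). At least 2-fold lower in the thymus were 8 of 10 enzymes, where 20.2% of 11306 genes were, and 0 were at least 2-fold higher (8.12%). Intervals lay below 0 for 9 of 10, where 16.9% of genes had such an interval. Pcca at 0.07 (−0.38 to 0.49) and Bckdhb at −0.62 (−1.17 to −0.15) were not 2-fold lower, and Bckdhb stood at 0.07 when every nucleus had equal weight. The median was −1.64 beside 0.02 over all genes. The label mix differs between the libraries: with each label weighted equally, a choice made after seeing the data, the summed ratio was −0.71. TMM scaling shifted these ratios by −0.15.

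**Figure D2:**
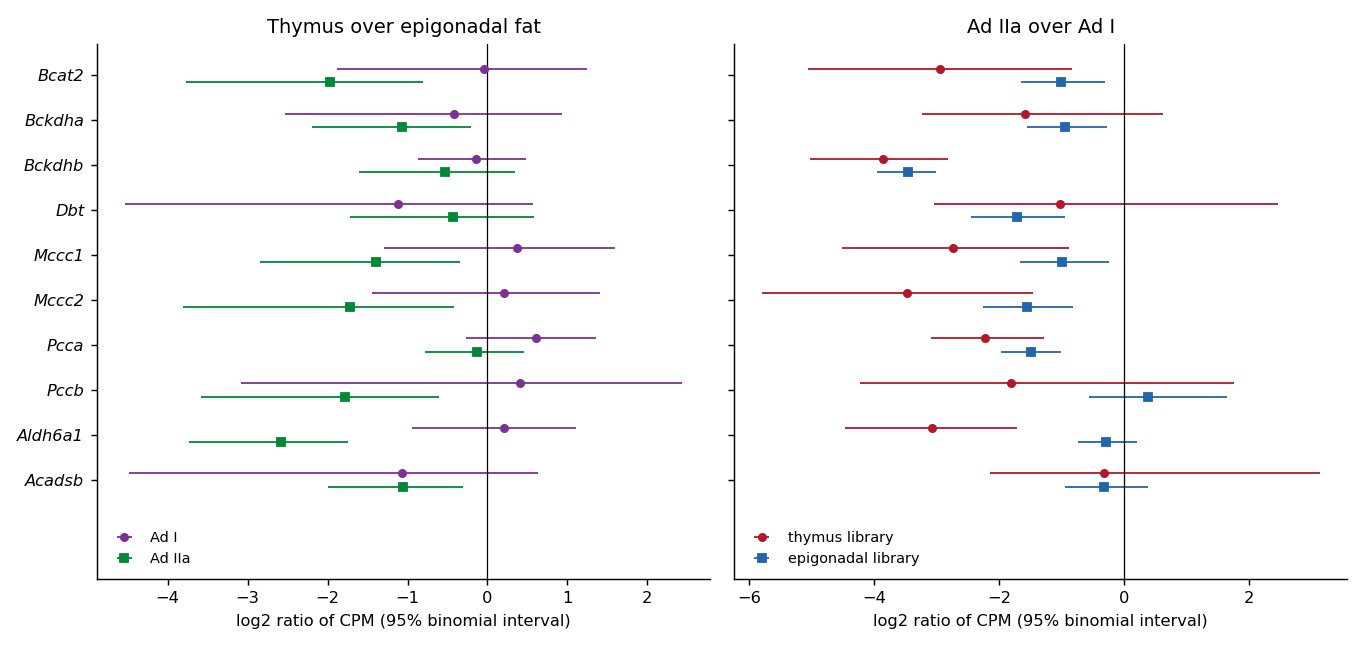
Log2 ratios of CPM with 95% binomial intervals for the 10 enzymes, thymus over epigonadal fat in Ad I and Ad IIa (left) and Ad IIa over Ad I within each library (right), with 0 marked by a line. On the left all 10 Ad I intervals cross 0 and 7 Ad IIa intervals lie below it, and on the right Bckdhb lies farthest from 0 in both libraries.

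Within each library, Ad IIa held less enzyme RNA than Ad I. In the thymus 8 of the 9 enzymes with at least 10 UMIs were at least 2-fold lower in Ad IIa, where 20.2% of 6095 genes were, and 0 were at least 2-fold higher (28.2%, or 16.0% with 0 held at its limit, which is then under the lower share). Pccb, with 7 UMIs, was not counted, and Acadsb at −0.31 (−2.14 to 3.14) was not 2-fold lower. Intervals lay below 0 for 6 (11.2% of genes). With nuclei of at least 1000 UMIs 5 of the 6 enzymes that kept 10 UMIs were at least 2-fold lower, and with thinning to 500 UMIs 1 of 1 (9 and 26 Ad I nuclei left), at summed ratios of −2.37 and −2.70. The share of all genes was not counted under these settings. In the main count the summed ratio was −2.49 (−2.92 to −2.05) and the median −2.74 beside 0.08 over all genes. In epigonadal fat 5 of 10 were at least 2-fold lower (17.5% of 10064 genes) and 0 at least 2-fold higher (19.8%), with a summed ratio of −1.29 (−1.47 to −1.12) and a median of −0.99 beside 0.07. The 5 were Bckdhb, Dbt at −1.71 (−2.44 to −0.93), Mccc2 at −1.55 (−2.26 to −0.81), Pcca at −1.49 (−1.96 to −1.01) and Bcat2 at −1.01 (−1.65 to −0.30). Intervals lay below 0 for 7 of 10 (16.1% of genes), and Pccb was the only enzyme above 0, at 0.39 (−0.56 to 1.66). TMM scaling shifted the thymic ratios by 0.41, with higher genes among the 2-fold calls moving from 58.3% to 74.2%, and the epigonadal ratios by 0.15. Endothelial markers were higher in Ad IIa, at 12022 CPM in Ad IIa against 1474 in Ad I in the thymus and 8826 against 1327 in epigonadal fat. Malat1, Neat1 and Meg3 together were lower in Ad IIa, at 17823 against 59455 CPM and 10402 against 42411 CPM. Of the 6 brown adipocyte markers, all were detected in thymic Ad I and all but Ucp1 in epigonadal Ad I. They were lower in Ad IIa too, at 169 against 2756 CPM in the thymus and 65.5 against 406 CPM in epigonadal fat. The 12 adipocyte markers did not follow this. They summed to 12574 CPM in Ad IIa against 13285 in Ad I in the thymus, and to 24411 against 17832 in epigonadal fat. The part of these in the enzyme ratios was not tested.

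Epigonadal Ad IIc against Ad I gave enzymes on both sides of 0, with Dbt, Mccc1 and Mccc2 not resolved from it. At least 2-fold higher were 4 of 10, where 24.3% of 8154 genes were: Pccb at 2.30 (1.38 to 3.54), Aldh6a1 at 1.84 (1.42 to 2.31), Acadsb at 2.83-fold and Bcat2. At least 2-fold lower were 2 of 10, where 37.5% of genes were: Bckdhb and Pcca, the latter at −1.25 (−1.82 to −0.69) and at −0.65 with TMM scaling. Intervals lay above 0 for 5 (21.0% of genes) and below 0 for 2 (35.2%). The median was 0.71 beside −0.40 over all genes, and the summed ratio was 0.51 (0.35 to 0.68), or 1.27 without the long genes Bckdhb and Pcca, a choice made after seeing the data. With TMM scaling, which shifted these ratios by 0.60 and took the higher genes among 2-fold calls from 39.4% to 56.2%, 7 enzymes were at least 2-fold higher, where 34.7% of genes were, and the summed ratio was 1.11.

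Bckdhb and Pcca have the longest gene bodies of the 10, and in this contrast the ratio of all genes ran with length. Over all genes the median ratio of Ad IIc to Ad I was 1.10 for gene bodies under 20 kb, −0.34 from 20 to 50 kb, −1.27 from 50 to 100 kb, −1.91 from 100 to 200 kb and −2.89 over 200 kb. Pcca spans 405.6 kb and Bckdhb 199.1 kb, and the other 8 enzymes span 20.3 kb (Aldh6a1) to 67.1 kb (Mccc2). The nuclear RNAs Malat1, Neat1 and Meg3 summed to 1829 CPM in Ad IIc and 42411 CPM in Ad I, and ribosomal protein genes to 84762 and 21118 CPM. Adipoq stood at 2513 CPM in Ad IIc and 383 CPM in Ad I. The part of these in the enzyme ratios was not tested. Each enzyme was also set beside the 500 tested genes nearest to it in length (453 for Pcca), a comparison chosen after seeing the data.

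In epigonadal Ad IIc over Ad I, the difference of the enzymes from genes of like length had a median of 1.43. Genes of like length spread widely, and 78.2% of them lay below Bckdha, 80.0% below Mccc1 and 82.6% below Bcat2. Bckdhb, at 0.04 (−0.46 to 0.51), sat at the median of its length, and Pcca at 1.71 (1.14 to 2.27) was above it. Pccb, at 3.27 (2.35 to 4.51), was above all 500 of its neighbours in length. Relative to the unlabelled epigonadal barcodes, 7 of 10 enzymes were at least 2-fold higher in Ad IIc (12.3% of genes). In that contrast each enzyme lay above 93.2% (Mccc1) to 99.4% (Mccc2) of the genes near it in length. Between the tissues the adjustment changed little, with medians of 0.01 in Ad I, −1.29 in Ad IIa and −1.80 over all labelled nuclei.

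**Figure D3:**
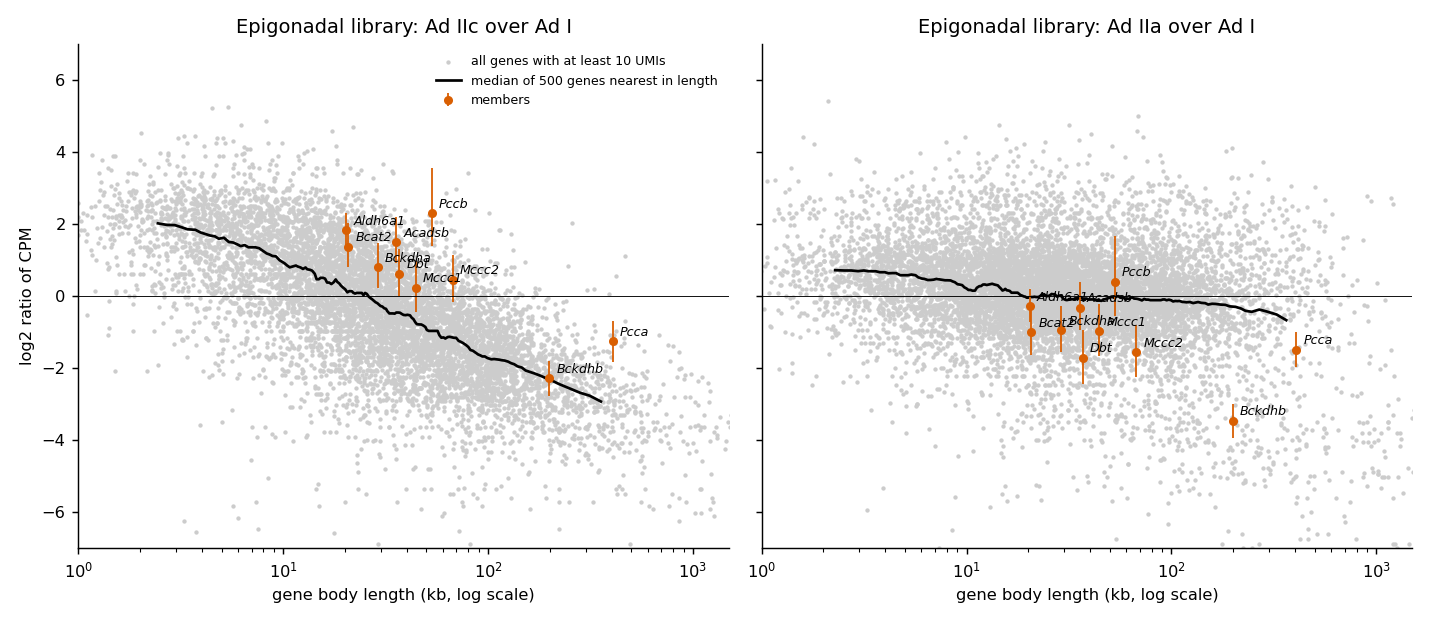
Log2 ratio of CPM against gene body length (kb, log axis) in the epigonadal library for Ad IIc over Ad I (left) and Ad IIa over Ad I (right): grey points are genes with at least 10 UMIs, the black line is the running median of 500 genes, and orange points are the 10 enzymes with 95% intervals. On the left the line falls with length and Bckdhb sits on it at −2.28. On the right Bckdhb, at −3.46, lies below the line, with 10.2% of the genes nearest it in length lower still.

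In Ad IIa the length classes differed less. In epigonadal Ad IIa against Ad I the median of genes over 200 kb was −0.72 and that of genes from 100 to 200 kb was −0.18, against −3.46 for Bckdhb. Single genes spread widely, and 10.2% of the 500 genes nearest Bckdhb in length lay lower still. Pcca, at −1.49, differed by −0.60 from the median of genes near it in length (−0.90), and was thus not 2-fold below genes of like length. The count of 5 enzymes at least 2-fold lower was 3 on that measure, and the thymic count of 8 was 7. The share of all genes was not counted on it. In the thymus both length classes had medians above 0 (0.28 and 0.17), against −3.85 for Bckdhb, with 4.4% of the genes nearest it in length lower still.

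Of the rest of the pathway, 27 genes were listed: 15 enzymes, 4 cofactor genes, 3 control genes and 5 transporters. In Ad I, 16 of them had at least 10 UMIs, with 3 at least 2-fold higher in the thymus (15.2% of all genes), 1 at least 2-fold lower (17.0%, or 9.26% with 0 held at its limit) and a median of 0.49. The highest were Ppm1k, the phosphatase that activates the dehydrogenase complex, at 2.34 (0.22 to 4.46, 5 UMIs on each side), and Mmaa, a cobalamin gene, at 3.99-fold (log2 interval 0.31 to 3.57, 7 thymic UMIs). The lowest were Mmut, methylmalonyl-CoA mutase, at −1.21 (−7.14 to 0.92) and the transporter Slc43a1 at −0.58 (−3.15 to 0.93). In Ad IIa, 8 of 22 were at least 2-fold lower in the thymus (16.2% of all genes) and 0 higher (5.44%), with a median of −0.68. Of the 22, 5 were above 0 and 6 had intervals below it.

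Over all labelled nuclei, 13 of 25 pathway genes were at least 2-fold lower in the thymus (20.2% of all genes) and 0 higher (8.12%), with a median of −1.17. With 0 held at its limit, 12 of 25 were lower (17.3% of all genes), with a median of −0.86. Mmab, a cobalamin gene, had 0 thymic and 22 epigonadal UMIs, which is at least 0.86 lower on the log2 scale and makes the difference between the 13 and the 12. Klf15, a transcription factor known to act on amino acid breakdown, was at −2.59 (−8.50 to −0.59) with 1 thymic UMI. Hlcs, which attaches biotin to the carboxylases, was highest of the list at 0.65 (−0.09 to 1.32).

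In epigonadal Ad IIc against Ad I, 10 of 25 pathway genes were at least 2-fold higher (24.3% of all genes) and 3 at least 2-fold lower (37.5%), with a median of 0.86. Hsd17b10 of the isoleucine branch was at 2.47 (1.46 to 3.92), Echs1, an enoyl-CoA hydratase, at 2.33 (1.74 to 3.05), and Acat1, which splits acetoacetyl-CoA and its methyl form, at 2.23 (1.57 to 3.03). Bckdk, the kinase that switches the dehydrogenase off, was at 2.13 (0.81 to 4.23), and Ppm1k, its opponent, at 0.86 (−0.51 to 2.74). Slc43a1 at −2.61 (−4.02 to −1.48) and Hlcs at −2.01 (−3.37 to −0.83) were lowest. Hsd17b10 spans 2.5 kb, Bckdk 5.6 kb and Echs1 10.7 kb, and all genes under 20 kb had a median of 1.10. Hlcs spans 185.9 kb, and genes from 100 to 200 kb had −1.91. Acat1 (29.8 kb), Ppm1k (29.1 kb) and Slc43a1 (24.7 kb) fall among genes from 20 to 50 kb, which had −0.34. The part of gene length in the ratios of this list was not tested.

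Across 12 sums of nuclei (5 labels and the unlabelled barcodes of each library), the enzymes did not all follow each other. Pearson's r of log2(CPM + 10) with the sum of the other 9 was highest for Bcat2 (0.90), Mccc1 (0.89) and Bckdha (0.86) and lowest for Acadsb (0.39) and Pcca (0.26). Among 7144 genes with at least 200 UMIs, those most like the summed enzymes were Bnip3 (0.97), Net1 (0.97), Ffar2 (0.97), Prps1 (0.97) and Pygl (0.96). These are descriptions over 12 points that share libraries, depth and label mix.

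Summed over the enzymes, chromatin was close between thymic labels. In the 6-month female library the authors' labels thyAD I (146 nuclei, 1646902 fragments), thyAD II (140, 2189613) and Immune (31, 561387) were read from the 317 nuclei used here. Over the 10 genes thyAD II was at −0.08 against thyAD I (−0.18 to 0.02), with a median of −0.07 beside 0.02 over all genes. No enzyme was 2-fold apart, which is close to the share of all genes. Of 27863 genes, 4.46% were at least 2-fold higher and 2.99% at least 2-fold lower. Pccb at −0.42 (−0.82 to −0.03; 67.4 FPM in thyAD I, 50.2 in thyAD II) and Pcca at −0.26 (−0.49 to −0.02; 171 and 143) had intervals below 0, 2 of 10 where 5.54% of genes did. Counted only within 1 kb of the gene ends, Pccb kept its direction at −0.45 and Pcca turned to 0.33. For Pcca those windows leave out the open downstream start, so the 0.33 does not describe that promoter. The promoter window of the downstream start was at −0.03 (−0.53 to 0.49). In the main count the intervals of the other 8 enzymes included 0.

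Bckdhb, farthest apart between Ad I and Ad IIa in RNA, had 146 FPM in thyAD I and 155 in thyAD II, a log2 ratio of 0.08 (−0.16 to 0.33). The chromatin labels are not the RNA labels, so the RNA and chromatin differences were not compared by a test. Against the Immune nuclei, Pcca was the only enzyme whose interval did not reach 0, with 98.0 FPM in Immune, a log2 ratio to thyAD I of −0.79 (−1.25 to −0.38), 1 of 10 where 9.35% of 24622 genes lay below 0. Within thyAD I, the authors' joint cluster 3 exceeded cluster 1 for Bckdha by 0.61 (0.08 to 1.12), 1 of 10 where 4.98% of 22472 genes lay above 0, and for the sum by 0.18 (0.02 to 0.33). Within thyAD II, clusters 4 and 0 had 0 of 10 enzymes with an interval on either side of 0, where 2.82% of 24516 genes lay above and 4.02% below.

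At the annotated starts, 300-base promoter windows held a median of 2 fragments over all genes, and 35.3% of windows held none. The Aldh6a1 promoter printed above held 223 fragments, more than 99.9% of windows, which is 44.2% of the 504 fragments over the gene. Acadsb held 122, Mccc1 94, Bckdha 87, Mccc2 87, Bckdhb 81 and Pccb 78 fragments at their most open start. Fragments there cannot be assigned to 1 gene where another lies close. The high-coordinate edge of Ikzf5 (131410518) lies inside the Acadsb window, and that of the non-coding Gm36278 (83925005) inside the Bckdhb window. Mccc1os spans the window of Mccc1, and Lin52 and Exosc5 have an edge 484 and 371 bases from the bodies of Aldh6a1 and Bckdha. Whether these edges are starts of transcription was not read. For Pcca, the downstream start printed above held 148 fragments and the upstream start, where the gene body begins, held 0 of 649, an exact interval that reaches 0.567%. In the remaining barcodes of the same library those 2 starts held 1678 and 35 of 10902 fragments, so the upstream start held few there as well. A signal at the upstream start was not detectable in labelled nuclei at this depth. The second annotated starts of Bckdhb and Aldh6a1 also held 0 fragments.

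Bcat2 held few fragments at the starts with a promoter window. These are at 45570153 and 45571279, inside the gene body, whose own beginning had no window. They held 8 and 2 fragments, while 152 of its 479 fragments fell in 1 bin of 500 bases at chr7:45567967-45568466. That bin lies at the low-coordinate end of the overlapping non-coding gene 0610005C13Rik (chr7:45567795-45575176) and upstream of the Bcat2 body, which begins at 45568967. Bckdhb had a second maximum 1.3 kb downstream of its start, at 7.29 transposase cut sites per 1000000 in thyAD I and 8.68 in thyAD II. In the 100 bases before the start the values were 9.11 and 7.54. In thyAD II these rest on 38 and 33 cut sites, too few to order the maxima.

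**Figure D4:**
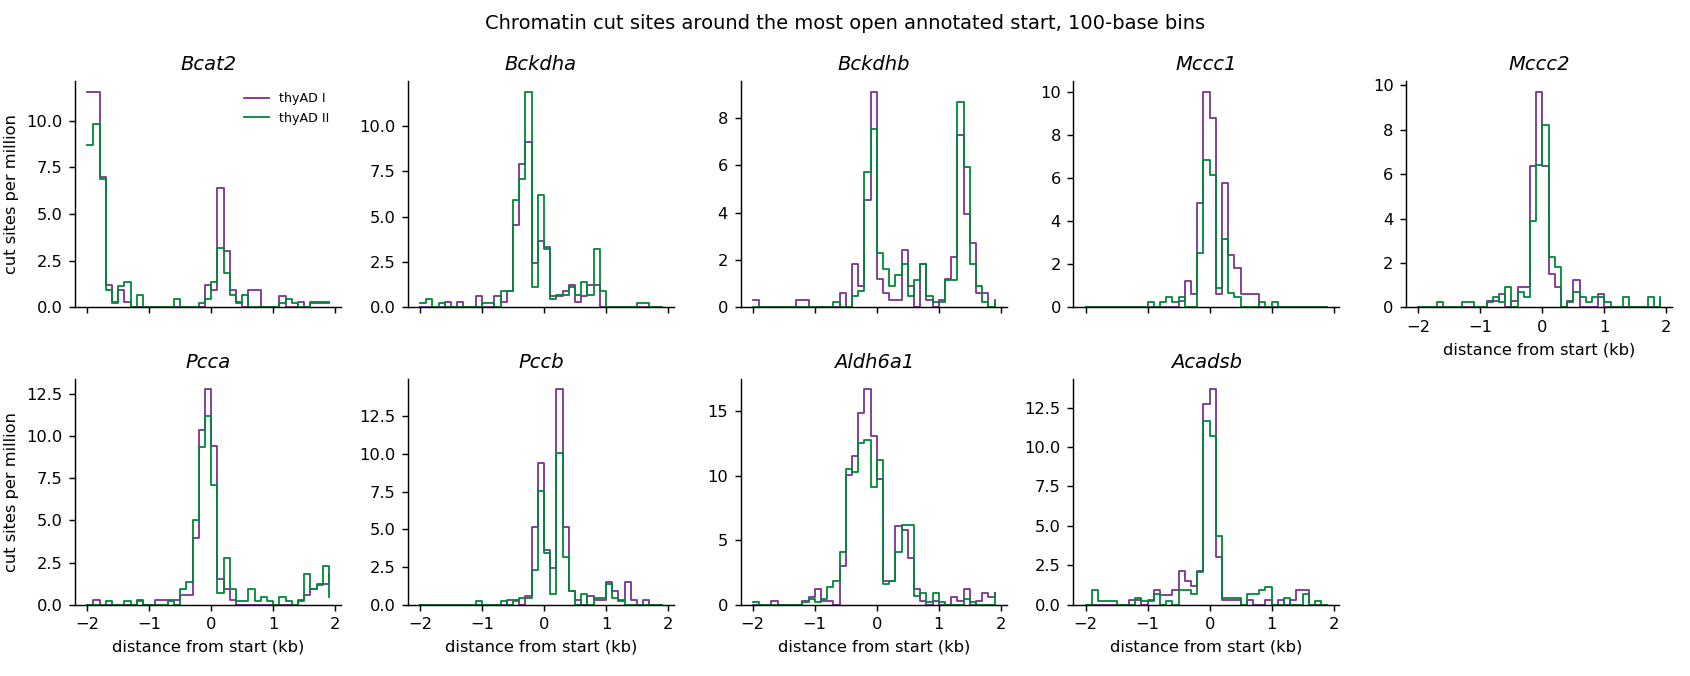
Transposase cut sites per 1000000 against distance from the most open annotated start (kb, in bins of 100 bases, negative is upstream) for 9 of the enzymes in thyAD I and thyAD II. Both labels peak near the start in 7 genes, Bckdhb has a second peak downstream that reaches 8.68 in thyAD II, and Bcat2 has its largest signal at the upstream edge.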

How the data were processed

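Raw UMI counts per gene and barcode were deposited by the authors, and per the file headers cellranger 7.2.0 produced them. The submitters' processing notes list mm10, Cell Ranger ARC 2.0.2 and Seurat 5.1.0, with no statement on introns or strand. Labels, joint clusters and other per-nucleus fields are the authors' deposited values, including the percent of mitochondrial UMIs, and no doublet call was added to theirs. For chromatin, cellranger-arc 2.0.2 with GRCm38 wrote the fragments, per the file headers. The table of chromatin labels used here ends inside a row, and its 317 complete rows were used.

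For each label of a library, UMIs were summed and divided by the nuclear-encoded total. Log2 ratios used 0.5 added to each count, with exact binomial intervals, and levels had exact Poisson and shares Clopper-Pearson intervals. A gene was counted with at least 10 UMIs over both sides and called at 2-fold from these ratios, genes with 0 on one side included. As a check, a side at 0 was held at 3 UMIs and called only where that limit was itself 2-fold away. This left the counts of enzymes named beside a share of genes as they were, and the shares it moved by over 1.5 times are given with it. The ratios and intervals were tested on simulated counts, and fragment counting against a direct count. Matrix totals exceeded the deposited UMI totals in 264 of 365 thymic and 775 of 1564 epigonadal nuclei, by at most 33 UMIs. Gene positions and promoters are RefSeq GRCm38.p6.

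The members, lists, motifs and alternatives were chosen with earlier results of these data known. Of other pathway genes, the 2 highest and 2 lowest ratios in Ad I and over all labelled nuclei are named, and others by role, except 1 result that is not reported here. Likeness names the 5 highest r. Alternatives were edgeR 4.0.16 TMM scaling, equal weight per nucleus, nuclei of at least 1000 UMIs, thinning to 500 UMIs, subtraction of the unlabelled profile, a pseudocount of 5, minimums of 0 and 50 UMIs and, for chromatin, cut sites, nuclei of at least 3000 fragments, windows of 1 kb at gene ends and a pseudocount of 5. Python 3.11.15, scipy 1.17.1 and R 4.3.3 were used.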

Additional observations from a re-analysis of the deposited data

Results flagged for a closer look

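Aldh6a1 was flagged because its ratio of thymus to epigonadal fat had opposite signs in the 2 labels, at 0.20 in Ad I and −2.59 in Ad IIa, with intervals that do not overlap. With TMM scaling the Ad I ratio was −0.14, so the opposite signs depend on the scaling. The difference itself was not tested, since each group is 1 library.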

How the results depend on the processing

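In Ad I, the count of enzymes at least 2-fold lower in the thymus went from 2 to 0 with nuclei of at least 1000 UMIs (9 thymic nuclei left), with thinning to 500 UMIs (26 left), with a pseudocount of 5 and with a minimum of 50 UMIs, and to 1 with the unlabelled profile subtracted. Acadsb turned to 0.85 with thinning and to 0.19 with the pseudocount of 5, and Dbt to 0.14 with the latter. In Ad IIa the count went from 7 to 3 with the pseudocount of 5. Over all labelled nuclei the summed ratio was −1.88 with thinning and −0.71 with labels weighted equally. In the thymus, Ad IIa against Ad I had 5 enzymes at least 2-fold lower with nuclei of at least 1000 UMIs and 1 with thinning, in place of 8, since 6 and 1 enzymes kept 10 UMIs, and the summed ratios were −2.37 and −2.70. In epigonadal fat, the summed ratio of Ad IIa was −1.56 against Ad Ia and −0.91 against Ad Ib, and that of Ad IIc against Ad I was 1.11 with TMM scaling, with 7 enzymes higher. Without the long genes Bckdhb and Pcca the summed ratio was −1.63 in Ad IIa between tissues, −2.05 over all labelled nuclei, −0.72 for epigonadal Ad IIa (3 enzymes lower) and 1.27 for epigonadal Ad IIc. Leaving out the long genes, weighting labels equally and splitting Ad I were chosen after seeing the data. The cause of the other changes was not tested. Apart from TMM scaling, the share of all genes was not counted under the alternatives, so the counts of enzymes here have none beside them. The summed ratio in Ad I ran from −0.38 to 0.27 over the alternatives, and those of the other 5 RNA comparisons and of the chromatin kept their direction in all that were run. Bckdhb over all labelled nuclei was 0.07 with equal weight per nucleus. Pcca chromatin was 0.33 with windows at gene ends, which leave out its open downstream start.

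No paired analysis was possible because each group is 1 library, and no library was left out for the same reason. Depth limits thymic Ad I, with 2 to 23 UMIs per enzyme, and more so thymic Ad IIb and Ad IIc, with 9 and 17 UMIs over all 10.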
